A study of Mus musculus with 15 samples.

Results

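The anti-Rtl1 miRNAs are the mature products of 5 hairpins, miR-431, miR-433, miR-127, miR-434 and miR-136, that lie opposite the Rtl1 gene in the imprinted Dlk1-Dio3 locus of the mouse. They were chosen by name, as the 5p and 3p arms of these hairpins, which gave 10 of the 1424 mature miRNAs in the deposited table, and all 10 passed the filter on low values that left 818 miRNAs for testing. The 15 small RNA libraries came from whole lungs of C57BL/6 mice, labelled 11 weeks old, and both sexes were used, without a sex given for each library. Wild-type (WT) mice carried the ordinary extracellular superoxide dismutase (EC-SOD, a secreted antioxidant enzyme). R213G mice were homozygous for a form with glycine in place of an arginine in the part of EC-SOD that binds the tissue matrix. Each mouse had received a single intratracheal dose of 100 uL, either phosphate-buffered saline (PBS) or bleomycin at 1 U/mL in PBS, a DNA-breaking drug used to injure the lung, and lungs were taken on day 7 after flushing with 10 mL of PBS through the right ventricle. There were 3 libraries from WT mice given PBS and 4 in each of the other groups, which were WT mice given bleomycin, R213G mice given PBS and R213G mice given bleomycin.

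The Dlk1-Dio3 locus is imprinted: protein genes such as Rtl1, derived from a retrotransposon, are transcribed from the paternal chromosome, and a long non-coding transcript that hosts many miRNAs from the maternal one. Part of that maternal transcript runs through Rtl1 in the opposite direction and is known as anti-Rtl1. A miRNA finds its targets mainly through its seed, bases 2 to 8 counted from its 5′ end, and a miRNA that pairs with a target along its whole length can direct cleavage of it, as has been described for anti-Rtl1 miRNAs and Rtl1 mRNA. The miRNAs of the locus are known to be abundant in fetal tissues, placenta, brain and muscle.

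The mature sequences, from RefSeq on GRCm38.p6, are shown because they separate the 10 members from one another and from the rest of the locus. All 10 matched an entry, and all lie on the plus strand of chromosome 12. They are printed 5′ to 3′ with the seed in capitals, in the order of the hairpins along the chromosome.
mmu-miR-431-5p: uGUCUUGCaggccgucaugca
mmu-miR-431-3p: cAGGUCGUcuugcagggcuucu
mmu-miR-433-5p: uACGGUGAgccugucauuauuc
mmu-miR-433-3p: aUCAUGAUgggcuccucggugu
mmu-miR-127-5p: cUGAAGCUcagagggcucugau
mmu-miR-127-3p: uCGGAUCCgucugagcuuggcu
mmu-miR-434-5p: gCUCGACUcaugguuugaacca
mmu-miR-434-3p: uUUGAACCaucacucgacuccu
mmu-miR-136-5p: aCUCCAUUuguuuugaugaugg
mmu-miR-136-3p: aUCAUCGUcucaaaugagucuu

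No 2 members had the same seed, and no member's seed was found in another mouse mature miRNA of the RefSeq table, so the members form no seed family. The 5 hairpins span 4942 bases, chr12:109590447-109595388. Mir431 lies at chr12:109590447-109590537, Mir433 at chr12:109591715-109591838, Mir127 at chr12:109592846-109592915, Mir434 at chr12:109594506-109594599 and Mir136 at chr12:109595327-109595388. Rtl1 is annotated on the minus strand at chr12:109589193-109600330, with 2 exons and a transcript of 6358 bases in which bases 148 to 5379 are coding. Each of the 10 miRNAs had exactly 1 stretch of perfect complementarity in this transcript, and all 10 stretches were coding. For the most abundant member, miR-127-3p, the stretch ran from base 2642 to base 2663 of the Rtl1 transcript, and the letters facing its seed are in capitals.
Rtl1 stretch facing miR-127-3p: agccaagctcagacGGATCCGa
This pairing follows from the position of the hairpins on the opposite strand. Rtl1 mRNA was not measured in these small RNA libraries.

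The values in the deposited table were taken as log2 of 1 plus a read count scaled to a common library size, called the equalized count below. A library's total ranged from 18087289.8 to 24759615.3 equalized counts. In R213G totals ran from 21775506.6 to 23232884.4 after PBS and from 18087289.8 to 21071254.7 after bleomycin. In WT they ran from 20688471.3 to 24759615.3 after PBS and from 19087572.0 to 21189039.9 after bleomycin. The part of these totals in the bleomycin differences was not tested. Sequencing depth before that scaling is not known. In whole lungs a change in the number of cells of a type and a change in RNA per cell cannot be told apart. WT PBS replicate 3 stood apart from the other WT PBS libraries. It held the highest WT PBS value for 9 of the 10 members, with a median deviation from the group mean of 0.43 on the log2 scale, against 0.58 over the 55 other tested miRNAs of the locus and 0.09 over all tested miRNAs. The 6 striated muscle marker miRNAs summed to 82530 equalized counts in that library and to 20525 and 16734 in WT PBS replicates 1 and 2. Its endothelial marker sum was the lowest of its group, 881060 against 1071480 and 1234299. So was its mesenchymal and smooth muscle sum, 3193804 against 3734564 and 3631660. Its erythroid sum was the highest of the group, 392234 against 238061 and 160967. By smaller margins its leukocyte sum (140863 against 126946 and 137055) and epithelial sum (495383 against 458513 and 487019) were also the highest. The part of this library's cell content in the results was not tested, and the bleomycin results are given with and without it.

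The most abundant member was miR-127-3p, with a mean log2 value of 15.12 over the 15 libraries (range 14.77 to 15.49). It ranked 63 among the 818 tested miRNAs. miR-434-3p followed at 11.68 (11.01 to 12.19) and miR-136-3p at 10.23 (9.79 to 10.66). Then came miR-434-5p at 9.44, miR-136-5p at 8.69, miR-431-5p at 7.34 and miR-127-5p at 7.02. The order of the last pair was not fixed, since miR-431-5p was above miR-127-5p in 11 of 15 libraries. Every other neighbouring pair kept its order in 15 of 15 libraries. At the low end were miR-433-3p at 5.38, miR-431-3p at 3.92 and miR-433-5p at 1.98, and the last of these had equalized counts of only 0.0809 to 9.70. These levels are per miRNA, all of 21 or 22 bases, but ligation and mapping can favour some sequences, so the order is that of read abundance.

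Summed over the 10 members, the libraries held 32177 to 53475 equalized counts, which was 0.130% to 0.274% of all miRNA counts, and miR-127-3p alone made 83.1% to 87.9% of the sum. The R213G PBS libraries summed to 38077, 32938, 41759 and 36896, and the R213G bleomycin libraries to 48338, 41824, 48296 and 49472. Every bleomycin library was above every PBS library there, by a very narrow margin at 41824 against 41759. In WT the PBS libraries summed to 37261, 32177 and 53475 and the bleomycin libraries to 45908, 41221, 45320 and 38942. WT PBS replicate 3 had the highest sum of all 15 libraries, and the other WT PBS libraries were below every WT bleomycin library.

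**Figure D1:**
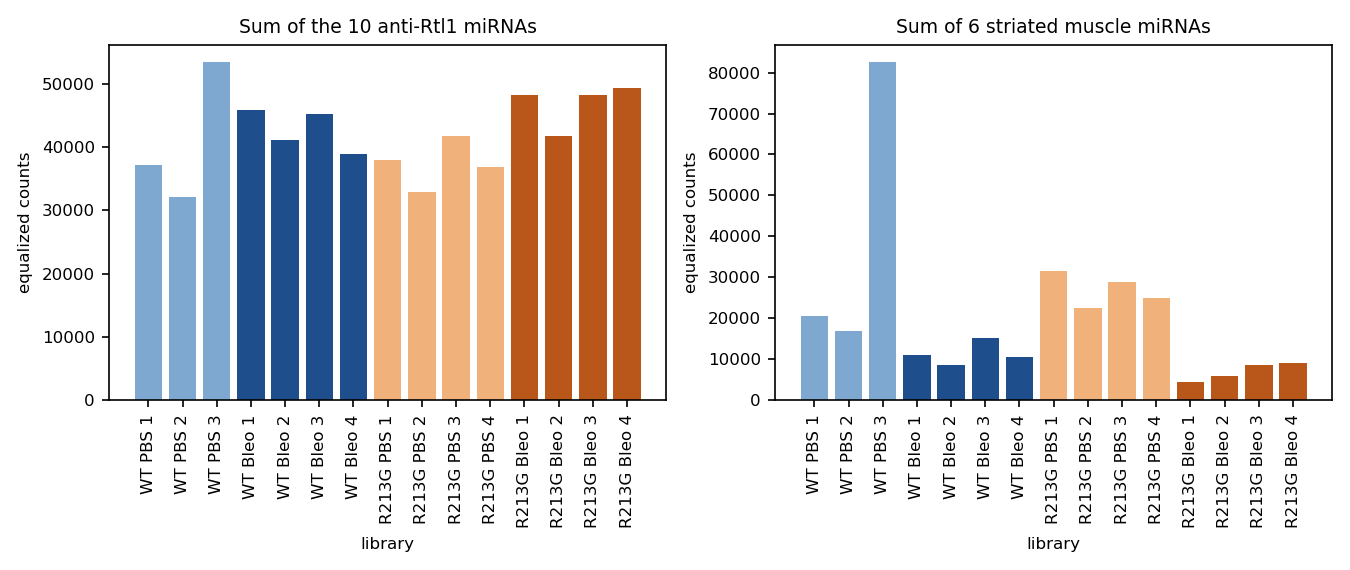
Bars show, for each of the 15 libraries, the sum of the 10 anti-Rtl1 miRNAs (left) and of the 6 striated muscle marker miRNAs (right), both in equalized counts on axes that start at 0. WT PBS replicate 3 is the highest bar in both panels, at 53475 and 82530 equalized counts.

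Bleomycin lungs had higher levels of most anti-Rtl1 miRNAs than PBS lungs 7 days after dosing, by modest amounts. With the bleomycin differences of WT and R213G averaged, 7 of the 10 members rose and none fell (limma moderated test, Benjamini-Hochberg adjusted p under 0.05 over 818 miRNAs). Of all tested miRNAs 28.7% were called higher and 50.7% were called in either direction. The median difference over the members was 0.43 on the log2 scale, against 0.08 over all tested miRNAs. The risers were miR-431-5p, miR-431-3p, miR-433-5p, miR-127-5p, miR-434-5p, miR-434-3p and miR-136-3p, with folds on the log2(1 + equalized count) scale from 1.22 for miR-136-3p to 2.40 for miR-433-5p. The last of these, near the floor, entered the test only through bleomycin libraries. Without it 6 of 9 members rose, and the largest fold was 1.59 for miR-431-3p. The 3 members that did not pass were miR-127-3p at 0.18 (95% confidence interval -0.02 to 0.38, adjusted p = 0.126), miR-433-3p at 0.27 (-0.12 to 0.66, adjusted p = 0.236) and miR-136-5p at 0.13 (-0.19 to 0.45, adjusted p = 0.492). Without WT PBS replicate 3, 9 of 10 rose, beside 29.6% of all tested miRNAs called higher and 51.0% in either direction. Without WT PBS replicate 2, 4 did, beside 25.8% of all tested miRNAs called higher and 45.8% in either direction. The members come from 1 stretch of one transcribed region and the average contrast contains both genotypes' differences, so these counts are not independent of each other. Rescaling mattered: setting library medians equal moved the median difference of all tested miRNAs from 0.08 to -0.05, and quantile normalization moved it to -0.04. Under either, 5 members passed. The counts without WT PBS replicate 3 or 2 and after rescaling all include miR-433-5p, whose call is no support for a rise. Of all tested miRNAs, 235 were called higher and 180 lower as deposited, 189 and 236 with equal medians, and 189 and 214 after quantile normalization.

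Within WT alone 2 members rose, miR-433-5p and miR-434-5p, beside 16.4% of all tested miRNAs called higher and 26.7% called in either direction. In R213G 4 members rose, miR-431-3p, miR-127-5p, miR-434-5p and miR-434-3p, beside 22.2% higher and 42.1% in either direction. The WT share lies near its background, and the R213G share lies near the share called in either direction. With equal medians 110 of all tested miRNAs were called higher and 121 lower in WT, against 134 and 84 as deposited, and in R213G 148 and 199 against 182 and 162. The median difference of the members was 0.27 in WT and 0.49 in R213G, against 0.05 over all tested miRNAs in each genotype. All 10 differences were above 0 in both genotypes, with the lowest, that of miR-136-5p in WT, at 0.00, but miR-127-3p and miR-136-5p fell below 0 in WT with equal library medians, and miR-136-5p also after quantile normalization. Of all tested miRNAs 53.2% had a difference above 0 in WT and 51.6% in R213G. miR-433-5p passed the filter in 3 libraries only, all of them bleomycin libraries, so it entered the test through the groups where it is high, and without it the counts were 1 of 9 in WT, 4 of 9 in R213G and 6 of 9 for the average. Without WT PBS replicate 3, 3 members rose in WT, miR-433-5p among them, beside 19.9% of all tested miRNAs called higher and 30.7% in either direction. In that fit 5 members rose in R213G, beside 24% higher and 45.0% in either direction. Both counts lie near the shares called in either direction. Without WT PBS replicate 1 no member was called in WT. Without WT PBS replicate 2 or WT bleomycin replicate 1, 2 or 4 only miR-433-5p was called, which is no support for a rise. In those 5 fits 12.3% to 17.0% of all tested miRNAs were called higher and 20.4% to 28.0% in either direction. Without R213G PBS replicate 2, 2 members rose in R213G, beside 19.3% higher and 35.7% in either direction, which puts them at the background.

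**Figure D2:**
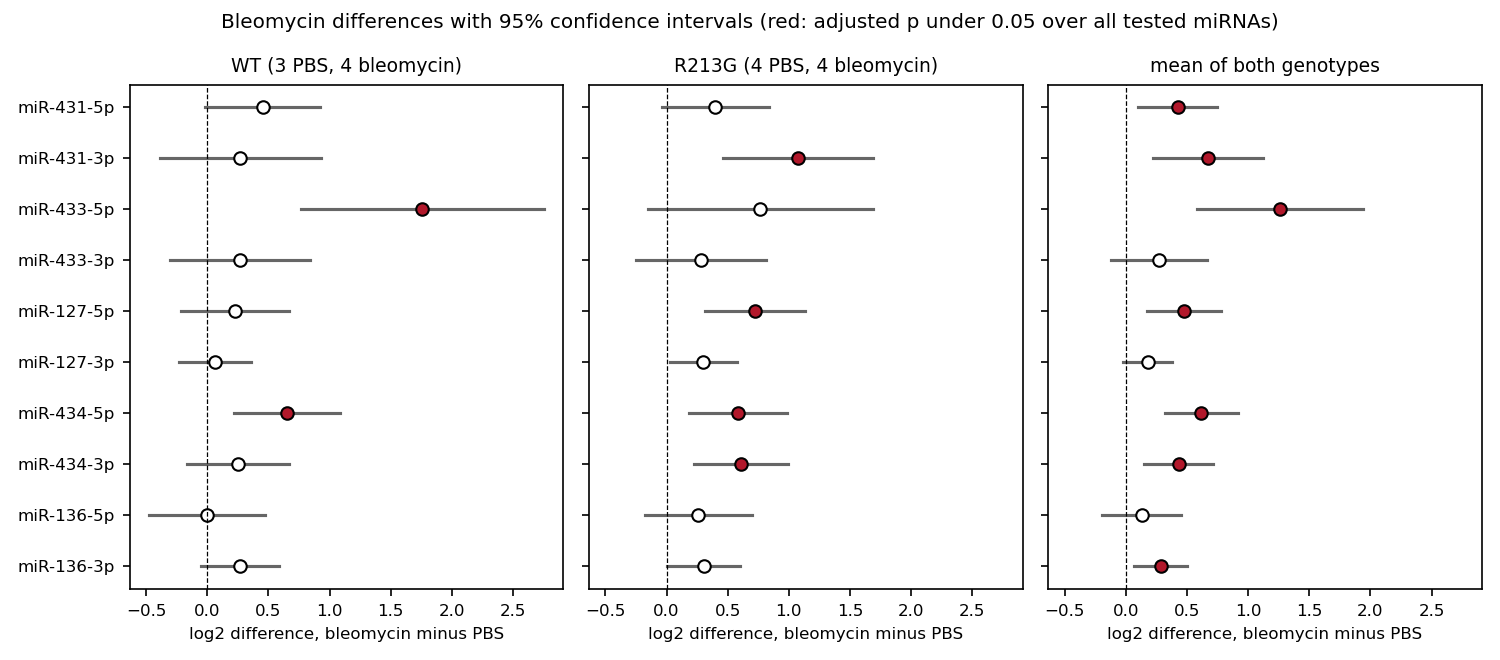
Points show the log2 difference, bleomycin minus PBS, of each member in WT, in R213G and averaged over both genotypes, with bars for 95% confidence intervals. Red points have adjusted p under 0.05 over all tested miRNAs: 2 in WT, 4 in R213G and 7 in the average.

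The miR-434 hairpin held the one member called in both genotypes. That member, miR-434-5p, the hairpin's less abundant arm, had log2 values of 8.78, 8.73 and 9.77 in WT PBS and of 9.91, 9.75, 9.52 and 9.78 in WT bleomycin. In R213G it was at 9.13, 8.91, 9.13 and 9.34 after PBS and at 9.66, 9.69, 9.54 and 9.97 after bleomycin. The R213G groups did not overlap, while in WT the PBS library that stood apart reached into the bleomycin range. The difference was 0.65 in WT (SE 0.21, adjusted p = 0.0252) and 0.59 in R213G (SE 0.19, adjusted p = 0.0204), and the WT rise was 1.57-fold. The WT difference was 0.99 without WT PBS replicate 3 (adjusted p = 0.000155). The WT call was lost without WT PBS replicate 1 or 2 or without WT bleomycin replicate 1, 2 or 4, with adjusted p from 0.0523 to 0.149. The R213G call was lost without R213G PBS replicate 2 (adjusted p = 0.065) or R213G bleomycin replicate 4 (adjusted p = 0.0691).

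The main arm, miR-434-3p, read 11.49, 11.18 and 12.07 in WT PBS and 11.76, 11.87, 11.85 and 11.84 in WT bleomycin. Its R213G values were 11.62, 11.01, 11.56 and 11.17 after PBS and 12.01, 11.55, 12.19 and 12.05 after bleomycin. Both genotypes' groups overlapped, in R213G through the bleomycin library at 11.55. The R213G difference of 0.61 (95% confidence interval 0.23 to 1.00, adjusted p = 0.0134) passed the test, and the WT difference of 0.25 (-0.16 to 0.67, adjusted p = 0.365) did not. Leaving out WT PBS replicate 3 gave a WT difference of 0.50 (adjusted p = 0.0492), and without R213G PBS replicate 2 the R213G difference was 0.50 (adjusted p = 0.051).

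The miR-127 hairpin supplies most of the members' reads, and its 3p arm is known for repressing Bcl6, a transcriptional repressor of B cells. miR-127-3p stood at 14.97, 14.77 and 15.49 in WT PBS and at 15.27, 15.07, 15.23 and 14.98 in WT bleomycin. In R213G it stood at 15, 14.82, 15.14 and 14.97 after PBS and at 15.33, 15.14, 15.31 and 15.36 after bleomycin. The R213G groups met at 15.14, and the WT groups overlapped over most of their range. Neither difference passed, with 0.06 in WT (-0.23 to 0.36, adjusted p = 0.775) and 0.30 in R213G (0.03 to 0.57, adjusted p = 0.0734). Its calls moved with the processing. With WT PBS replicate 3 left out, which gives a smaller shared spread, its R213G difference of 0.30 was called (adjusted p = 0.0183), and so was its average difference of 0.28 (adjusted p = 0.00507). Quantile normalization gave 0.43 in WT (adjusted p = 0.037) and 0.57 in R213G (adjusted p = 0.00348), whereas equal library medians gave -0.06 in WT (adjusted p = 0.76).

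The 5p arm, miR-127-5p, is the minor product. Its log2 values were 7.09, 6.29 and 7.36 in WT PBS and 7.06, 7.13, 7.28 and 7.09 in WT bleomycin. R213G PBS libraries gave 6.66, 6.28, 6.96 and 6.69 and R213G bleomycin libraries gave 7.29, 7.40, 7.43 and 7.37. Every R213G bleomycin library was above every R213G PBS library, and the WT bleomycin values fell inside the WT PBS range. The rise in R213G was 0.72 (95% confidence interval 0.31 to 1.13, adjusted p = 0.0071), or 1.65-fold, and the WT difference was 0.23 (-0.22 to 0.67, adjusted p = 0.464). The difference between these differences was 0.50 (-0.11 to 1.10, adjusted p = 0.638), so a genotype dependence was not shown.

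The miR-431 hairpin is the first of the row on the chromosome, and its 5p arm is known from muscle precursor cells, where it represses Pax7. miR-431-5p read 7.05, 7.10 and 7.56 in WT PBS and 8.04, 7.44, 7.68 and 7.60 in WT bleomycin. R213G values were 6.96, 7.01, 6.59 and 7.46 after PBS and 7.22, 7.70, 7.02 and 7.68 after bleomycin. Bleomycin and PBS libraries overlapped in both genotypes. The differences of 0.45 in WT (adjusted p = 0.147) and 0.40 in R213G (adjusted p = 0.134) did not pass separately, and their average of 0.43 did (0.10 to 0.75, adjusted p = 0.0278). That average was not called after equal library medians (0.30, adjusted p = 0.099) or quantile normalization (0.33, adjusted p = 0.0822). It was also lost without any one of 6 libraries, WT PBS 1 or 2, WT bleomycin 1, R213G PBS 3 and R213G bleomycin 2 or 4, with adjusted p up to 0.0709.

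The 3p arm, miR-431-3p, was much rarer, at equalized counts of 6.33 to 24.4. It read 4.56, 3.22 and 4.03 in WT PBS and 4.31, 4.37, 4.37 and 3.77 in WT bleomycin. In R213G it read 3.25, 3.19, 2.87 and 3.64 after PBS and 4.36, 3.86, 4.36 and 4.66 after bleomycin. The R213G groups were separate and the WT groups were not. The R213G rise of 1.07 (0.46 to 1.69, adjusted p = 0.00735) was 2.11-fold, and the WT difference was 0.27 (-0.39 to 0.93, adjusted p = 0.556). The interaction of genotype and bleomycin was 0.80 (-0.10 to 1.70, adjusted p = 0.615). The average of 0.67 (adjusted p = 0.0147) was not called without WT PBS replicate 2 (0.49, adjusted p = 0.0527) or after quantile normalization (0.45, adjusted p = 0.0875).

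The miR-433 hairpin has been studied in kidney fibrosis, where miR-433 has been linked to transforming growth factor beta signalling. Its 5p arm, miR-433-5p, was close to the limit of measurement, at 0.11, 1.22 and 1.82 in WT PBS and 3.24, 3.42, 2.48 and 2.09 in WT bleomycin. In R213G it was at 1.94, 0.89, 1.63 and 1.70 after PBS and 1.84, 2.32, 2.61 and 2.47 after bleomycin. The WT groups were separate and the R213G groups overlapped at 1.84 and 1.94. The WT difference of 1.76 (0.76 to 2.75, adjusted p = 0.0104) fell to 1.29 (adjusted p = 0.0689) without WT PBS replicate 1, the library at 0.11. In R213G the difference was 0.77 (-0.15 to 1.69, adjusted p = 0.169). The filter admitted miR-433-5p through 3 bleomycin libraries only, which favours a higher value after bleomycin. Its adjusted p-values are therefore no support for a rise.

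The main arm, miR-433-3p, read 4.78, 4.90 and 5.87 in WT PBS and 5.83, 5.71, 5.05 and 5.20 in WT bleomycin. Its R213G values were 4.91, 5.25, 5.49 and 5.48 after PBS and 5.57, 5.38, 5.42 and 5.89 after bleomycin. The groups overlapped in both genotypes. The differences were 0.27 in WT (-0.31 to 0.84, adjusted p = 0.499) and 0.28 in R213G (-0.25 to 0.81, adjusted p = 0.385). The average of both genotypes was 0.44 and was called (adjusted p = 0.0329) without WT PBS replicate 3.

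The miR-136 hairpin lies nearest the start of the Rtl1 coding sequence, and neither of its arms passed in either genotype alone. miR-136-5p read 8.63, 8.43 and 9.13 in WT PBS and 8.28, 8.98, 8.83 and 8.83 in WT bleomycin. In R213G it read 8.30, 8.35, 8.89 and 8.59 after PBS and 8.78, 8.30, 9.17 and 8.92 after bleomycin. Within each genotype the bleomycin range covered or crossed the PBS range. Its differences were 0.00 in WT (-0.47 to 0.48, adjusted p = 1.00) and 0.26 in R213G (-0.18 to 0.70, adjusted p = 0.332).

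The 3p arm, miR-136-3p, is the more abundant product in the lung. It read 10.17, 9.79 and 10.35 in WT PBS and 10.18, 10.41, 10.66 and 10.21 in WT bleomycin. R213G values were 10.10, 9.79, 10.29 and 10.05 after PBS and 10.39, 10.29, 10.39 and 10.37 after bleomycin. The R213G groups touched at 10.29. Neither genotype passed alone, with 0.27 in WT (adjusted p = 0.206) and 0.30 in R213G (adjusted p = 0.0941), while the average of 0.28 did (0.07 to 0.50, adjusted p = 0.0303). That call was lost after equal library medians (0.16, adjusted p = 0.181) and quantile normalization (0.22, adjusted p = 0.0833), and without WT PBS 2, WT bleomycin 2 or 3 or R213G PBS 2, with adjusted p from 0.0503 to 0.108.

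**Figure D3:**
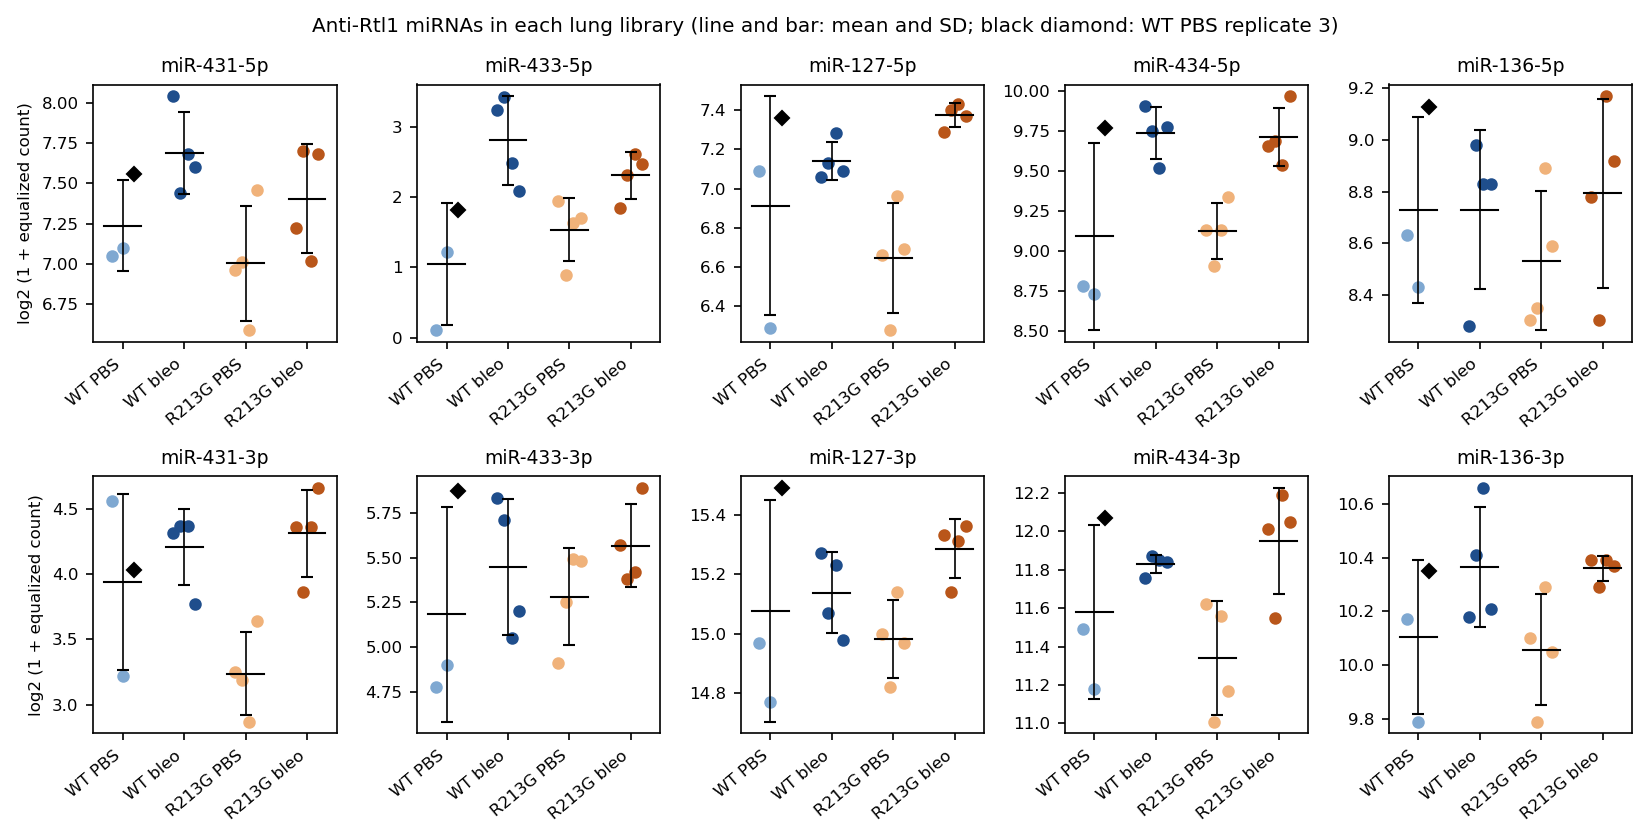
Each panel shows 1 member's log2(1 + equalized count) in the 15 libraries, by group, with the group mean and SD (n = 3 for WT PBS and n = 4 for the other groups), on axes that do not start at 0. WT PBS replicate 3, the black diamond, is the highest WT PBS point for 9 of the 10 members.

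Another hairpin of the locus, miR-3071, lies on the opposite strand over miR-136. Its miR-3071-3p is the reverse complement of miR-136-5p over 20 bases and its miR-3071-5p of miR-136-3p over 19 bases. Log2 values ranged from 5.14 to 6.38 for miR-3071-3p and from 4.05 to 4.96 for miR-3071-5p, below the lowest value of the miR-136 arm each one faces. The sources used here do not say whether the counting used strand, so reads of these facing pairs may not have been fully separated.

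Counted per genotype, every bleomycin library was above every PBS library for 1 member in WT, miR-433-5p, where 18.7% of all tested miRNAs had this pattern. In R213G that held for 3 members, miR-431-3p, miR-127-5p and miR-434-5p, where 21.9% of all tested miRNAs had it. The labels number the R213G libraries in one unbroken series, the lower 4 numbers going to replicates 1 and 3 of both treatments and the higher 4 to replicates 2 and 4, and do not say what the numbers mark. All 10 members had a bleomycin difference above 0 within the lower and within the higher numbers. These are the same R213G libraries as above, so the split gives no separate support. The share of all tested miRNAs with this pattern was not computed. For the members called in R213G the values, lower numbers first, were 0.47 and 0.70 for miR-434-5p, 0.51 and 0.71 for miR-434-3p, 0.55 and 0.90 for miR-127-5p and 1.30 and 0.84 for miR-431-3p. Among the others they were 0.34 and 0.46 for miR-431-5p, 0.44 and 1.10 for miR-433-5p and 0.29 and 0.27 for miR-433-3p. They were 0.25 and 0.36 for miR-127-3p, 0.38 and 0.14 for miR-136-5p and 0.20 and 0.41 for miR-136-3p. The WT libraries carry numbers of another range, so number and genotype cannot be told apart. Within WT the bleomycin libraries are numbered 777 to 780 and the PBS libraries 781 to 783. Number and bleomycin therefore cannot be told apart in WT either.

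The authors' deposited table holds q-values from a test on means with unequal variances and from a Wilcoxon rank test. By the test on means in that deposited table, the R213G bleomycin comparison gave q-values under 0.05 for miR-431-3p (q = 0.0382) and miR-434-5p (q = 0.0414). By the same test in the deposited table miR-127-5p had q = 0.0716 and miR-434-3p q = 0.109 for that comparison, and the other members had q-values above 0.05 in all 4 comparisons. The Wilcoxon q-values in the deposited table were above 0.05 for every member in all 4 comparisons, with q = 0.109 for miR-431-3p and miR-434-5p in R213G. Both had a Wilcoxon p of 0.0286 there, the smallest that 4 libraries against 4 can give. With 3 libraries against 4, as in WT, the smallest is 0.0571, the Wilcoxon p of miR-433-5p (q = 0.223). No miRNA could pass the rank test in these 2 bleomycin comparisons, so its result decides nothing about the members.

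The arms of each hairpin kept their order in every library, with the 3p arm dominant in all but miR-431. The main arm's share of its hairpin's equalized counts was 99.5% to 99.7% for miR-127-3p, 85.4% to 94.2% for miR-431-5p, 84.1% to 99.7% for miR-433-3p, 78.0% to 86.8% for miR-434-3p and 69.9% to 79.9% for miR-136-3p. The balance between arms, the log2 value of the 3p arm minus that of the 5p arm, was tested over 234 hairpins with both arms measured. For the average of both genotypes 38.0% of these hairpins had a changed balance. Of the 4 hairpins here other than miR-433, 1 did: the miR-127 balance fell by 0.29 (95% confidence interval -0.51 to -0.08, adjusted p = 0.0364), that is, the minor 5p arm gained on the 3p arm. The miR-433 hairpin entered this test only because its near-floor 5p arm passed the filter in 3 bleomycin libraries, which favours a lower balance after bleomycin, so its balance is given as values with no test. It read 4.13 ± 0.49 (SD, n = 3) in WT PBS, 2.64 ± 0.34 (SD, n = 4) in WT bleomycin, 3.74 ± 0.58 (SD, n = 4) in R213G PBS and 3.26 ± 0.40 (SD, n = 4) in R213G bleomycin, a difference of -0.99 averaged over both genotypes and of -0.36 with a pseudocount of 5 in place of 1. The miR-127 balance read 8.16 ± 0.30 (SD, n = 3) and 8.00 ± 0.15 (SD, n = 4) in WT and 8.33 ± 0.15 (SD, n = 4) and 7.92 ± 0.14 (SD, n = 4) in R213G, PBS first. The miR-127 change turned to 0.15 after quantile normalization (adjusted p = 0.322), was not called without the low-value filter (adjusted p = 0.111) or with a replicate block (adjusted p = 0.067), and was lost without any one of 9 libraries (WT PBS 2 or 3, WT bleomycin 2, 3 or 4, R213G PBS 1 or 2, R213G bleomycin 2 or 3), with adjusted p from 0.0563 to 0.108. The balances of miR-434 (-0.19, adjusted p = 0.34), miR-136 (0.15, adjusted p = 0.396) and miR-431 (0.25, adjusted p = 0.40) did not pass.

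**Figure D4:**
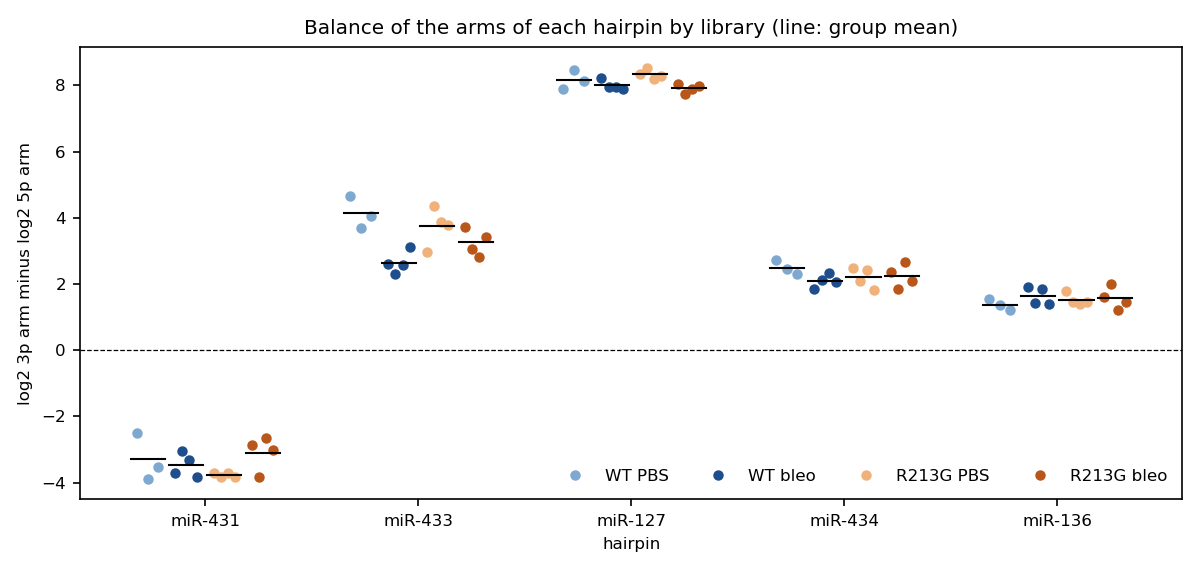
Points show the log2 value of the 3p arm minus the log2 value of the 5p arm for the 5 hairpins in each library, by group, with lines at the group means. Only miR-431 lies below 0, and the miR-433 mean is 4.13 in WT PBS and 2.64 in WT bleomycin.

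No genotype difference in the anti-Rtl1 miRNAs passed the test. Between R213G and WT after PBS no member was called and 0% of all 818 miRNAs were, with 44 at an unadjusted p under 0.05. After bleomycin no member was called and again 0% of all tested miRNAs, with 97 at an unadjusted p under 0.05. For the interaction, the R213G bleomycin difference minus the WT one, no member was called, 0% of all tested miRNAs were, and 65 had an unadjusted p under 0.05. After PBS 1 member, miR-431-3p, had an unadjusted p under 0.05, with R213G lower than WT by a log2 difference of -0.70 (-1.36 to -0.04, adjusted p = 0.827), and none did after bleomycin or for the interaction. The precision differed between members. For miR-127-3p, the member with the smallest standard error, the intervals were -0.39 to 0.20 after PBS, -0.13 to 0.42 after bleomycin and -0.16 to 0.64 for the interaction. For miR-433-5p, the least precise, they were -0.50 to 1.49, -1.42 to 0.42 and -2.34 to 0.36.

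Over the rest of the Dlk1-Dio3 locus, the low-value filter kept 55 of the 81 other mature miRNAs. For the average of both genotypes 32 rose and 2 fell, with a median difference of 0.54, against 7 and 0 of 10 and a median of 0.43 for the anti-Rtl1 group. In WT 19 rose and 1 fell, and in R213G 27 rose and 1 fell, with medians of 0.47 and 0.71. Every bleomycin library was above every PBS library for 16 of the 55 in WT and 28 in R213G. The 4 with the smallest p for the average were miR-380-3p (1.51, adjusted p = 4.89e-06), miR-134-5p (1.12, adjusted p = 1.14e-05), miR-494-3p (0.97, adjusted p = 1.25e-05) and miR-409-3p (0.89, adjusted p = 1.78e-05), all from the large miR-379 to miR-410 group downstream. For miR-380-3p the bleomycin libraries lay between 6.51 and 7.08 and the PBS libraries between 4.57 and 6.04. The members' own differences ended at 1.26 for the rare miR-433-5p and at 0.67 for the next, miR-431-3p. The other miRNAs called in WT went from 20 to 32 of 55 without WT PBS replicate 3, to 13 without WT PBS replicate 1 and to 12 without WT PBS replicate 2. No test of the anti-Rtl1 group against the rest of the locus was made.

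**Figure D5:**
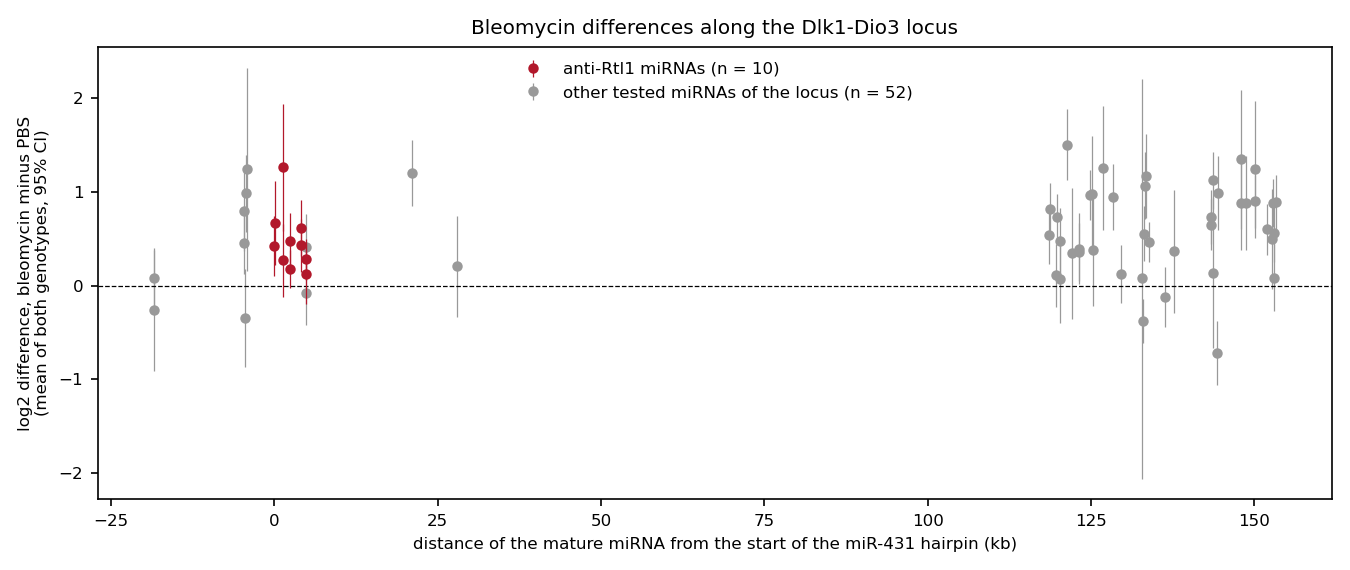
Each point is a mature miRNA of the Dlk1-Dio3 locus with a RefSeq position, placed by its distance in kb from the start of the miR-431 hairpin, with its log2 bleomycin difference averaged over both genotypes and a 95% confidence interval. The 10 anti-Rtl1 miRNAs (red) run from 0.13 to 1.26, and the 52 others (grey) include most of the differences near or above 1.

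Across the 15 libraries the miRNAs most like miR-127-3p outside the group, by Pearson's r of log2 values, were miR-337-5p (r = 0.84), miR-129-5p (r = 0.83), miR-3071-3p (r = 0.83), miR-154-3p (r = 0.81) and miR-323-3p (r = 0.80). All but miR-129-5p belong to the locus. On deviations from group means, which leave out the group differences, the 5 were miR-380-3p (r = 0.92), miR-129-5p (r = 0.90), miR-337-5p (r = 0.90), miR-3071-3p (r = 0.89) and miR-409-3p (r = 0.85). Inside the group r with miR-127-3p ran from 0.85 for miR-434-3p, the highest of all 817 other tested miRNAs, through 0.84 for miR-127-5p to 0.38 for miR-431-5p, which ranked 224. On deviations from group means the first member, miR-434-3p, came at place 11 (r = 0.81), followed among members by miR-127-5p at place 16 (r = 0.77), and miR-431-5p was last of them at place 231 (r = 0.24). These values describe shared variation over libraries that also share WT PBS replicate 3, where miR-127-3p, miR-129-5p and miR-337-5p each had their highest value (15.49, 5.92 and 7.77).

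Marker miRNAs of several cell types moved with bleomycin beside the anti-Rtl1 group, and none of the lists had a marker at 0 in every library of a group. Of 9 mesenchymal and smooth muscle markers, WT lungs showed 4 higher and 2 lower, and R213G lungs 4 higher and 3 lower. In the average the fibroblast miRNA miR-214-3p rose by 0.79 and the smooth muscle miRNA miR-143-3p fell by 0.29 (adjusted p = 2.62e-06 and 0.00404). The summed level of this list, in which miR-143-3p counts heavily, was 3193804 to 3734564 in WT PBS, 2637328 to 3249083 in WT bleomycin, 3081933 to 3648101 in R213G PBS and 2444788 to 3167861 in R213G bleomycin. Of 8 leukocyte markers, 5 were higher and none lower in WT and 4 were higher and 1 lower in R213G. In the average 6 were higher and 1 lower. There miR-155-5p was up by 1.03 (adjusted p = 5.07e-06), while miR-150-5p was lower, at -0.31 (adjusted p = 0.0256). Leukocyte sums were 126946 to 140863 and 154286 to 200124 in WT, and 166676 to 187323 and 148333 to 177048 in R213G, PBS first.

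The other lists moved mostly downward. Of 9 epithelial markers, 1 was higher and 2 lower in WT and 1 higher and 5 lower in R213G, with sums of 458513 to 495383 and 380689 to 505575 in WT and 438077 to 547298 and 407595 to 503470 in R213G, PBS first. Of 5 erythroid markers 4 fell in WT and 3 in R213G, with sums of 160967 to 392234 and 41401 to 60263 in WT and 136728 to 392617 and 66249 to 231677 in R213G. Of 5 tested striated muscle markers 2 fell in WT and 3 in R213G. Their sums were 16734 to 82530 after PBS and 8518 to 15148 after bleomycin in WT, and 22395 to 31505 and 4440 to 9039 in R213G. Of 2 endothelial markers none was called in WT and 1 fell in R213G, with sums of 881060 to 1234299 and 1063751 to 1090552 in WT and 1054394 to 1188866 and 812047 to 1178573 in R213G. The part of these shifts in the anti-Rtl1 differences was not tested.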

How the data were processed

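Small RNA from whole lung was sequenced for 15 libraries in 4 groups (3 WT PBS and 4 in each other group), and groups and replicate numbers were taken from the sample titles. The submitters' processing notes name Bowtie2 2.3.2, SAMtools 1.9 and edgeR; the sources used here do not give the genome build, miRBase release, adapter trimming or strand setting. The authors deposited log2 values per mature miRNA, with fold changes on the log2 scale, p-values and q-values from Welch and Wilcoxon tests. The deposited fold changes equal differences of group means within 7.2e-09. The values were taken, from their spacing and sums, as log2 of 1 plus a read count brought to a library size common to all; the deposited name also mentions RPKM, whole reads were not recovered, and depth before scaling is unknown, so no count test or counting interval was used.

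The log2 values were analysed with limma 3.58.1 in R 4.3.3: lmFit with 1 mean per group over all 15 libraries, eBayes with an intensity trend, 6 contrasts, and Benjamini-Hochberg adjustment over all 818 miRNAs whose equalized count passed 5 in 3 or more libraries. A miRNA was called at adjusted p under 0.05, and intervals are 95%. Arm balances were fitted the same way over 234 hairpins. The labels do not say that each library is a separate mouse, so p-values measure the spread between these libraries. Sequences and positions came from RefSeq (GRCm38.p6) and the Rtl1 transcript from GENCODE on the same build; motif searches were exact matches to the reverse complement.

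The members, the locus and marker lists and the tests were chosen with earlier results of these data known. All 10 members are named whatever their result; outside the group, the 5 miRNAs most like the most abundant member and of the called locus miRNAs the 4 with the smallest p are named. Alternatives were other filters, a pseudocount of 5, equal library medians, quantile normalization, no intensity trend, a replicate block, a number-block term, sample weights, only the groups compared, and each library left out. The scripts were tested on simulated data.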

Additional observations from a re-analysis of the deposited data

Results flagged for a closer look

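Dixon's test compares the gap between the highest or lowest library and its nearest neighbour with the range of the group. It was run on 45 groups of 4 libraries (10 members and 5 arm balances in the 3 groups of that size), and chance alone would pass about 1 in 20 groups. For miR-431-3p in WT bleomycin, replicate 4 at 3.77 lay below the others at 4.31 to 4.37, and the gap was 0.902 of the range, past Dixon's critical value. For the miR-136 arm balance in R213G PBS, replicate 1 at 1.79 lay above the others, and the gap was 0.841 of the range. The WT PBS group, with 3 libraries, was too small for this test.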

How the results depend on the processing

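In the bleomycin comparisons no called member changed sign under any alternative run. Over 1474 combinations of member, comparison and alternative, 1377 kept their sign and their side of the threshold, 26 lost a call, 12 gained one and 59 changed sign, none of them from a called value. Members called in WT, 2 of 10, became 1 under the stricter filter (which drops miR-433-5p) and 1 with only the groups compared, and ran from 0 to 3 with 1 library left out. With 1 library left out the members called ran from 2 to 5 in R213G and from 4 to 9 in the average. The average counts always included miR-433-5p. All tested miRNAs called in either direction ran from 35.3% to 45.0% in R213G and from 45.8% to 51.6% in the average. Those called higher ran from 18.8% to 24% in R213G and from 25.4% to 29.6% in the average. In WT 20.4% to 30.7% were called, or 167 to 251 miRNAs, with 12.3% to 19.9% called higher. Other locus miRNAs called ran from 12 to 32 in WT and from 23 to 34 in R213G. Changed arm balances ran from 1 to 2 and always included that of miR-433, which is given above as values with no test. Under the stricter filter, which leaves miR-433 untested, and with a pseudocount of 5, where the miR-433 call was lost, only miR-127 was called. With no filter, quantile normalization or the replicate block the miR-127 call was lost. The 1 changed balance left there was that of miR-433, so none of the other member hairpins was called. The cause of those losses was not tested.

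The groups share replicate numbers. Over 21 same-numbered pairs the correlation of deviations ran from -0.14 to 0.26, with 8 over 0.1. Pairs with different numbers were not compared, so these values do not decide whether the numbers pair the libraries. With the replicate block the members called were 2 in WT, 5 in R213G and 7 in the average. Of the 818 tested miRNAs, 215 were called in WT (132 higher), 348 in R213G (186 higher) and 410 in the average (231 higher). The members called in WT and in the average included miR-433-5p, and miR-127-3p was then called in R213G (adjusted p = 0.0352).

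Sign changes of uncalled values were as follows. In WT, miR-127-3p was -0.0559 with equal medians, and miR-136-5p was -0.12 with equal medians, -0.0349 after quantile normalization and -0.0314 with the replicate block. For R213G against WT, miR-434-5p was -0.0203 after PBS with the replicate block and 0.0673 after bleomycin with sample weights, where miR-136-5p was -0.0183. For the interaction, miR-431-5p was 0.0125 after quantile normalization and 0.0181 with the replicate block, miR-433-3p was -0.0018 with equal medians and -0.0001 with weights, and miR-136-3p was -0.0448 after quantile normalization and -0.0277 with weights.

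With 1 library left out, the values that crossed 0 in WT ran from -0.0882 to 0.58 for miR-431-3p, -0.0859 to 0.45 for miR-127-5p, -0.0922 to 0.27 for miR-127-3p and -0.15 to 0.20 for miR-136-5p. After PBS they ran from -0.10 to 0.44 for miR-433-3p, -0.25 to 0.11 for miR-127-3p, -0.14 to 0.38 for miR-434-5p, -0.44 to 0.0058 for miR-434-3p, -0.35 to 0.0036 for miR-136-5p and -0.20 to 0.0774 for miR-136-3p. After bleomycin they ran from -0.0408 to 0.25 for miR-431-3p, -0.0167 to 0.25 for miR-433-3p, -0.11 to 0.0309 for miR-434-5p, -0.0894 to 0.23 for miR-136-5p and -0.07 to 0.0919 for miR-136-3p. For the interaction they ran from -0.22 to 0.10 for miR-431-5p, -0.33 to 0.22 for miR-433-3p, -0.40 to 0.12 for miR-434-5p and -0.0849 to 0.19 for miR-136-3p. Depth before scaling is unknown, so the precision of the rare arms miR-433-5p and miR-431-3p rests on the spread between libraries alone.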
